A study of Mus musculus with 12 samples.

Results

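The comparison described here sets DNFB-treated ears of mice lacking both cannabinoid receptors (Cnr1-/-/Cnr2-/-) against DNFB-treated ears of wild-type C57BL/6J mice. It uses 6 of the 12 arrays of the study, 3 per genotype, chosen by genotype and treatment alone. DNFB (dinitrofluorobenzene) is a hapten, a small reactive chemical that binds skin proteins and provokes a T cell response called contact hypersensitivity. Every mouse was female, aged 8 to 10 weeks, and was sensitized on the shaved abdomen with 50 µl of 0.2% DNFB on consecutive days. The challenge followed on day 5, when 10 µl of DNFB at 0.3% were applied to the right ear, and whole ears were taken 48 h after what the labels call the second challenge. The remaining 6 arrays hold the untreated left ears of the same 6 mice, so each control ear comes from a sensitized mouse. For each array, 5 µg of total RNA from 1 ear were turned into labelled cRNA, of which 10 µg were hybridized. How the knockout alleles were made, the background strain of the knockout line and whether the wild-type mice were littermates are not given in the sources used here, so receptor genotype and strain background cannot be told apart.

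Cnr1 encodes CB1, the cannabinoid receptor best known from neurons, and Cnr2 encodes CB2, found mainly on leukocytes. Both are G protein-coupled receptors for lipids that cells make from membrane phospholipids, the endocannabinoids, and both occur in skin. In contact hypersensitivity, keratinocytes and mast cells release chemokines, recalled T cells enter the ear with neutrophils and monocytes, and the epidermis thickens as its cells divide and form a new barrier.

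The values are linear probe set intensities that the authors made with GCRMA, a method that subtracts an estimate of non-specific binding. Testing was limited to the 29460 probe sets that reached an intensity of 16 in 3 or more arrays. A gene was represented by its brightest tested probe set with 1 symbol, which gave 13383 genes. Differences are log2 intensity in knockout minus wild-type ears with the standard error (SE) of a limma fit to all 12 arrays, and a probe set is called changed at a Benjamini-Hochberg adjusted p below 0.05. Median intensities of the 6 arrays were 24.7 to 26.5 in knockout and 25.7 to 27.2 in wild-type DNFB ears. The median difference over all genes was 0.02. Array pairs correlated at 0.957 to 0.962 among knockout DNFB ears and at 0.967 among wild-type DNFB ears, and pairs across genotypes at 0.955 to 0.966. The difference between the 3' and 5' control probe sets of Actb, which grows with RNA degradation, was 0.41 to 0.42 in knockout and 0.47 to 0.62 in wild-type DNFB ears, with no overlap. For Gapdh the same measure overlapped, at -0.39 to -0.29 in knockout and -0.36 to -0.32 in wild-type DNFB ears. Washing runs were inferred from gaps between the hybridization times in the instrument records. They place all 3 knockout DNFB arrays in 1 run and the 3 wild-type DNFB arrays in the 2 other runs, so run and genotype cannot be told apart within DNFB ears. The part of RNA quality and run in the results below was not tested.

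The genes removed in the knockout were near the lower limit of the arrays in both genotypes. Cnr1 had intensities of 19.8, 4.88 and 5.74 in knockout DNFB ears and 16.3, 10.9 and 8.75 in wild-type DNFB ears (log2 difference -0.50 ± 0.53, adjusted p = 0.808). Cnr2 had 30.1, 39.4 and 28.6 in knockout DNFB ears and 28.1, 15.9 and 27.9 in wild-type DNFB ears (0.48 ± 0.38, adjusted p = 0.721). Neither gene was lower in knockout ears beyond the spread between ears. For Cnr2, every knockout DNFB ear lay above every wild-type one, as was so for 8.96% of all genes. Where the probes lie relative to the deleted part of each gene is not given in the sources used here, so neither value checks the genotype labels.

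Of the 29460 probe sets, 17 (0.0577%) were higher and 18 (0.0611%) lower in knockout than in wild-type DNFB ears. By gene, 4 of 13383 (0.0299%) were higher, namely Mmrn1, Cd209e, Lox and H2ax, and 5 (0.0374%) were lower, namely Zfp593, Wdfy1, Efcab7, Nnt and Cep85. In the untreated ears of the same mice, 20 of the 35 probe sets were also called between genotypes, all 20 in the same direction. None of the 35 passed the test of a difference between the genotype contrast in DNFB ears and that in control ears. At an unadjusted p below 0.05, 641 genes were higher and 664 lower. Leaving out each of the 6 DNFB arrays in turn ended most of these calls: Zfp593 remained called in all 6 such fits, Mmrn1 in 3, Efcab7 and Nnt in 1 each (without wild-type DNFB replicate 2), and the other 5 genes in none, with adjusted p-values of the 9 genes no higher than 0.17. With the washing run as a fixed block, 0 genes were higher and 1 lower, and 1 of the 35 probe sets remained called. That fit links the runs by setting knockout control replicate 3 against knockout control replicates 1 and 2. Wild-type DNFB replicate 1 carries no weight in its comparison of DNFB ears.

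Cd209e, a C-type lectin of the mouse DC-SIGN family of dendritic cells and macrophages, was called with the wild-type DNFB ears standing apart from all other ears. Its intensity was 70.9, 62.3 and 71.7 in knockout DNFB ears and 26.1, 24.0 and 24.4 in wild-type DNFB ears. In control ears it was 59.2, 79.9 and 48.1 in knockout and 68.5, 42.6 and 59.4 in wild-type mice. The 3 wild-type DNFB ears were thus the lowest of the 12, while the other 3 groups overlapped. Cd209e was 2.75-fold higher in knockout DNFB ears (log2 difference 1.46 ± 0.20, adjusted p = 0.0373), against 0.13 in control ears (adjusted p = 0.848). The difference between those contrasts was 1.33 and did not pass the test over all probe sets (adjusted p = 0.534).

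H2ax, a histone H2A variant that is phosphorylated at DNA breaks, had intensities of 544, 584 and 558 in knockout DNFB ears and 372, 374 and 354 in wild-type DNFB ears. All 6 DNFB ears lay above all 6 control ears, where H2ax was 170, 154 and 180 in knockout and 141, 132 and 149 in wild-type mice. The difference was 1.53-fold in DNFB ears (0.62 ± 0.09, adjusted p = 0.0384) and 0.25 on the log2 scale in control ears (adjusted p = 0.327).

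Lox encodes lysyl oxidase, the enzyme that crosslinks collagen and elastin. It had 614, 618 and 618 in knockout DNFB ears and 361, 383 and 434 in wild-type DNFB ears, a 1.57-fold difference (0.65 ± 0.09, adjusted p = 0.0384). In untreated ears it was 572, 532 and 596 in knockout and 384, 356 and 387 in wild-type mice (0.59, adjusted p = 0.0514). Knockout ears were therefore the 6 highest of the 12, whether or not they had met DNFB. A second Lox probe set lay higher in knockout DNFB ears by 0.48 without being called (adjusted p = 0.167), and its control-ear difference of 0.71 was called (adjusted p = 0.0188).

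Mmrn1, encoding the platelet and endothelial protein multimerin, separated the genotypes most widely. Knockout DNFB ears had 102.6, 88.2 and 117, whereas wild-type DNFB ears had 3.40, 3.06 and 11.1, all below the intensity of 16 used as the lower limit. Knockout ears were therefore at least 6.38-fold higher, measured against 16 (adjusted p = 0.0158). Untreated ears showed the same split, with 185, 187 and 266 in knockout and 8.95, 8.37 and 3.12 in wild-type mice (adjusted p = 0.00319). As background, a substrain of C57BL/6 is known to lack Mmrn1.

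Nnt encodes nicotinamide nucleotide transhydrogenase, a mitochondrial enzyme that makes NADPH. As background, C57BL/6J mice are known to carry a deletion in Nnt. Here Nnt was lower in knockout DNFB ears, with 60.9, 72.9 and 64.9, against 179, 129 and 173 in the ears labelled C57BL/6J (-1.26 ± 0.17, adjusted p = 0.0373). Untreated ears had 64.7, 85.0 and 59.2 in knockout and 211, 205 and 262 in wild-type mice (-1.71, adjusted p = 0.00377). Its second probe set was lower as well (-1.97, adjusted p = 0.00913).

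Wdfy1, an endosomal protein with WD repeats, had 35.9, 45.7 and 33.0 in knockout DNFB ears and 103, 86.1 and 104 in wild-type DNFB ears. No knockout ear reached the lowest wild-type ear (-1.37 ± 0.20, adjusted p = 0.0384), and in control ears the difference was -1.28 (adjusted p = 0.0462). Of its other tested probe sets, 2 were also called lower, by -1.49 (adjusted p = 0.00107) and -1.82 (adjusted p = 0.0295), and a dim one differed by -1.86 without being called (adjusted p = 0.44).

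**Figure D1:**
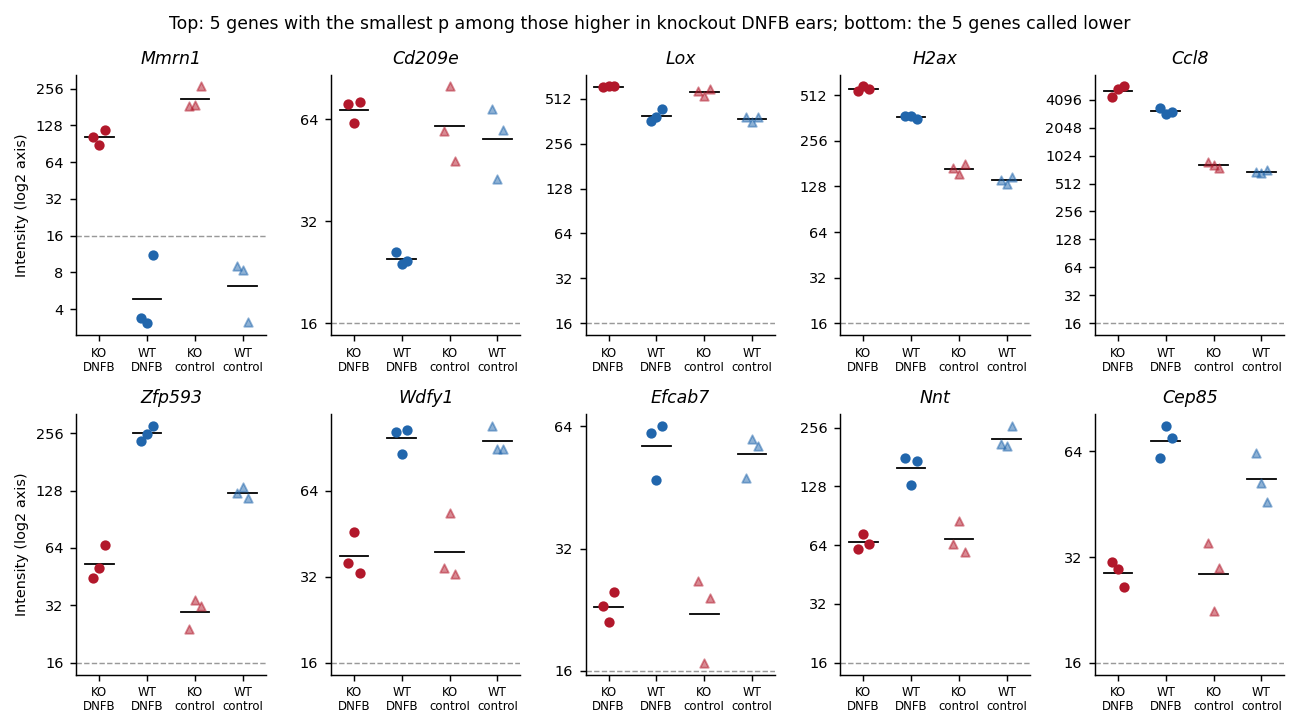
Intensity on a log2 axis of 10 genes in every array: Mmrn1, Cd209e, Lox, H2ax and Ccl8 in the upper panels, Zfp593, Wdfy1, Efcab7, Nnt and Cep85 in the lower ones. Circles are DNFB ears and triangles control ears, with knockout left of wild type, black lines mark geometric means of 3 arrays and the dashed line marks the intensity of 16. The 3 knockout and 3 wild-type DNFB ears do not overlap in any of the 10 panels, and for Cd209e, H2ax and Ccl8 the control ears lie closer together than the DNFB ears do.

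The other called genes lie on chromosome 4, which also carries Cnr1 and Cnr2. Zfp593, a zinc finger gene, had 44.6, 50.4 and 66.2 in knockout DNFB ears and 233, 255 and 281 in wild-type DNFB ears (-2.27 ± 0.17, adjusted p = 0.000653). Untreated ears differed as much, by -2.07 (adjusted p = 0.000896). The probe sets of Zfp593 disagree, since a dimmer one differed by 0.06 (adjusted p = 0.969).

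Cep85, which encodes a centrosomal protein, had 30.9, 29.6 and 26.3 in knockout DNFB ears and 61.4, 75.7 and 69.7 in wild-type DNFB ears (-1.25 ± 0.18, adjusted p = 0.0373). Its other probe set differed by 0.27 the other way (adjusted p = 0.627). Efcab7, a protein of the ciliary base, had 23.1, 21.1 and 24.95 in knockout DNFB ears and 61.4, 47.1 and 64.1 in wild-type DNFB ears (-1.31 ± 0.19, adjusted p = 0.0382). Neither gene's knockout ears reached its wild-type ears, and the control-ear differences were -0.90 for Cep85 (adjusted p = 0.116) and -1.30 for Efcab7 (adjusted p = 0.028).

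Paqr7, a membrane progestin receptor gene named after its values were seen, was called through a second, dimmer probe set. That probe set had 5.41, 4.62 and 5.56 in knockout DNFB ears and 49.0, 37.4 and 43.2 in wild-type DNFB ears, so wild-type ears were at least 2.68-fold higher against the limit of 16 (adjusted p = 0.000653). Its brighter probe set had 172, 83.6 and 128 in knockout DNFB ears and 315, 292 and 194 in wild-type DNFB ears and was not called (adjusted p = 0.253). In control ears both probe sets were called lower in knockout. The dimmer one had 11.0, 15.2 and 9.56 in knockout and 354, 358 and 221 in wild-type mice (adjusted p = 2.9e-05). The brighter one had 267, 308 and 283 in knockout and 1258, 1295 and 960 in wild-type mice (-2.02, adjusted p = 0.0144).

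Counted in tested genes along chromosome 4, Paqr7, Zfp593 and Cep85 stand at positions -20, -27 and -29 from Cnr2, and Efcab7 at -309. Among the 100 tested genes nearest Cnr2, 0 were called higher and 2 lower, and among the 100 nearest Cnr1 none was called. Over the 804 genes of the chromosome 0 were higher and 3 lower. Genes whose 3 knockout values all lay below the 3 wild-type values numbered 16 near Cnr2 and 12 near Cnr1, against 6.94% of all genes, and those with all 3 above numbered 12 and 6, against 8.96% of all genes.

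**Figure D2:**
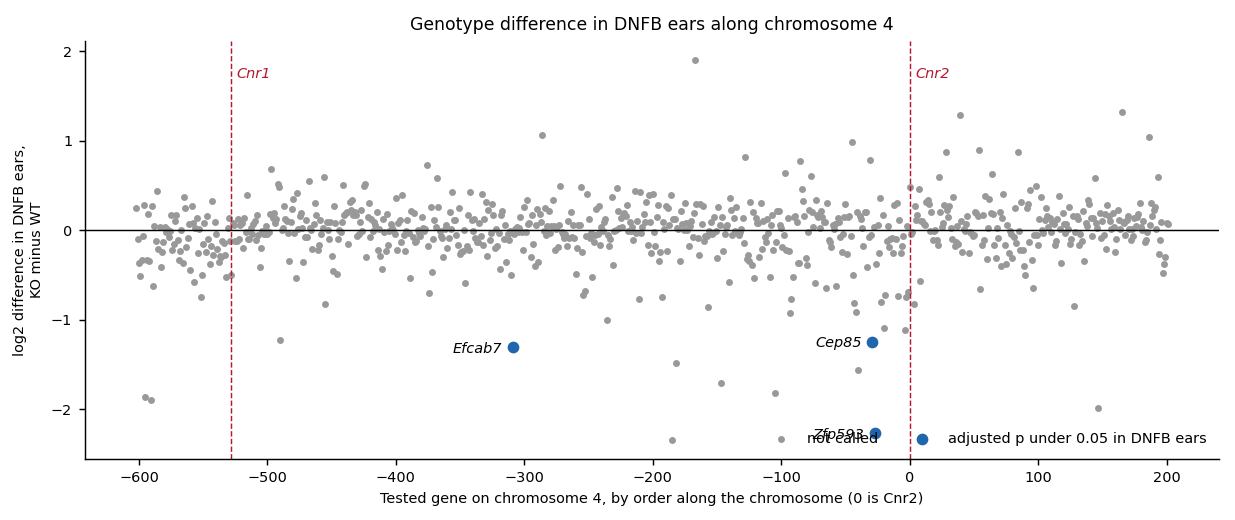
Log2 difference, knockout minus wild-type DNFB ears, of the tested genes of chromosome 4 in their order along it, counted from Cnr2 at 0. Each point is a gene, and the called genes Efcab7, Cep85 and Zfp593 are marked. Cep85 and Zfp593 stand within 29 genes of Cnr2, and no gene close to Cnr1 is called.

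Of the 35 called probe sets, 19 carried 1 symbol and stood for 16 genes, 7 carried several symbols and 9 none. Besides the genes above, the single-symbol ones named after their values were seen were Pigs and Nos1, called lower, Cacfd1 and Pisd-ps3, called higher, and Cdadc1 and Kif6, whose means lay below 16 in both kinds of DNFB ear, so that no order is given for them. In 14 of the 35 a group mean lay below 16. Only 6 were uncalled in control ears with both DNFB means at 16 or more, 4 of them higher and 2 lower.

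Ccl8, a chemokine for monocytes and, in mice, for T cells bearing Ccr8, had intensities of 4404, 5352 and 5683 in knockout DNFB ears and 3347, 2887 and 3020 in wild-type DNFB ears. Every knockout DNFB ear exceeded every wild-type one, by 1.66-fold on average (0.73 ± 0.12), with an adjusted p of 0.0654 that missed the threshold. Control ears had 864, 805 and 746 in knockout and 674, 659 and 724 in wild-type mice (0.23, adjusted p = 0.472). In 6 of 18 alternative settings Ccl8 was called, with an adjusted p of 0.00119 with limma's trend and robust options together.

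Other chemokines for monocytes overlapped between the genotypes. Ccl2 had 139, 133 and 172 in knockout and 197, 102 and 223 in wild-type DNFB ears (-0.16 ± 0.28, adjusted p = 0.891), Ccl7 differed by 0.02 (adjusted p = 0.994) and Ccl12 by 0.52 (adjusted p = 0.628). The largest computed difference, -1.84 ± 1.14 (adjusted p = 0.652), was that of Ccl20, a chemokine for Ccr6-bearing cells. Its intensities lay around the limit of 16, at 3.40, 21.5 and 3.00 in knockout and 22.3, 35.0 and 12.95 in wild-type DNFB ears. The knockout mean lay below 16, so the size of this difference is not fixed. Among the 14 tested monocyte chemokines and receptors, Ccl8 alone had groups that did not overlap, and the list's median difference was 0.22. Ccl24, an eotaxin that attracts eosinophils, had 105, 90.9 and 107 in knockout DNFB ears and 38.7, 41.1 and 13.8 in wild-type DNFB ears. This was the largest difference among 18 T cell and skin-homing chemokine genes (1.85 ± 0.35, adjusted p = 0.154), whose median was -0.04, and without wild-type DNFB replicate 3, the lowest ear, it was 1.34 (adjusted p = 0.0531). Ccl24 was called with limma's trend and robust options together (adjusted p = 0.016).

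The genes of 36 lists of pathways and cell types, 568 of them tested, were then set beside all genes. Lox was the one member called in this fit, so lists are described by their median and by how many members had no overlap between the 3 knockout and 3 wild-type values. Over all genes 8.96% lay wholly above and 6.94% wholly below. Members of a list were measured in the same ears and can move together, so they do not count as separate evidence. In whole ears, fewer cells of a type and less RNA per cell cannot be told apart. Most list medians lay above 0, 27 of 36, and 10 or more members without overlap were found in the epidermal differentiation, cell cycle, and fibroblast and matrix lists, a count that also depends on list size.

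**Figure D3:**
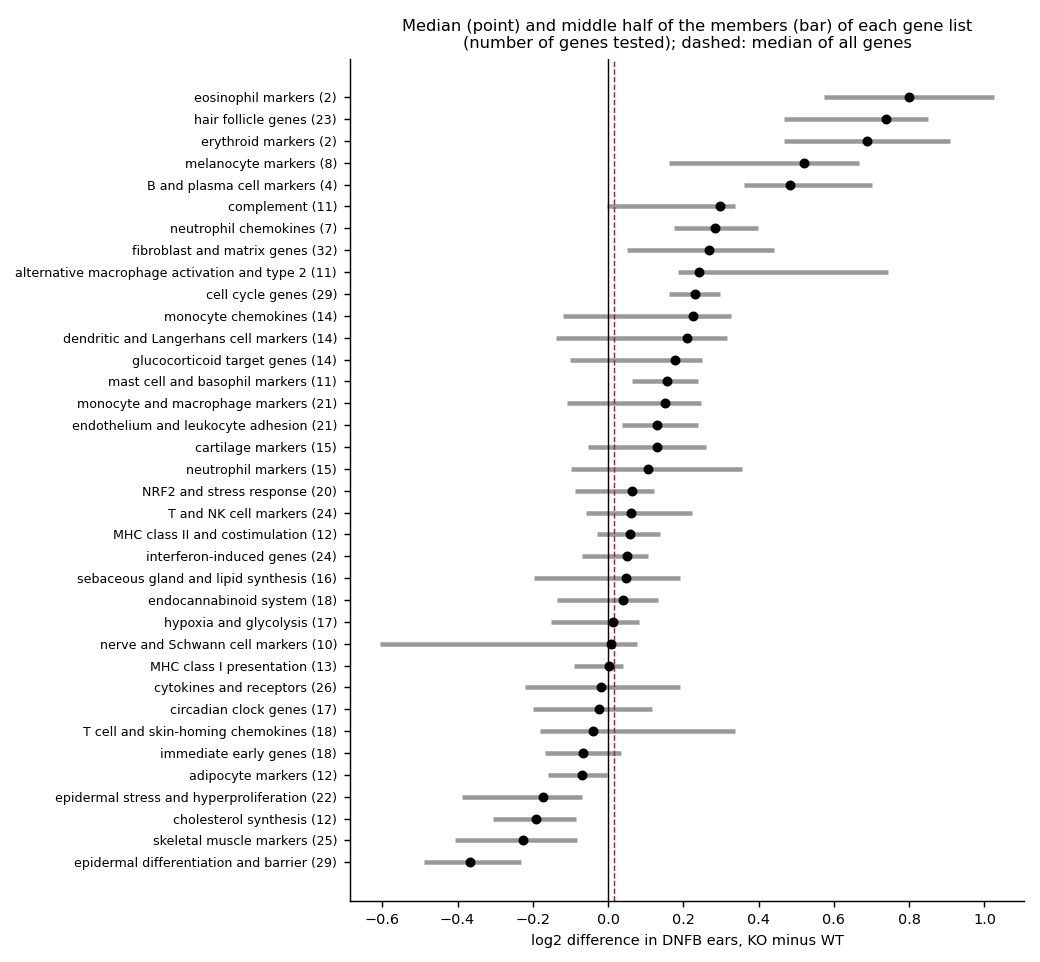
Median (point) and quartiles (bar) of the log2 difference, knockout minus wild-type DNFB ears, for each of 36 gene lists, with the number of tested genes in brackets. The dashed line marks the all-gene median of 0.02. The epidermal differentiation list has a median of -0.37, the cell cycle list 0.23 and the fibroblast and matrix list 0.27.

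Genes of epidermal differentiation and the skin barrier were lower in knockout DNFB ears across the list without single calls. Of 29 tested genes, 28 had a difference below 0, and 19 (65.5%) had all 3 knockout ears below all 3 wild-type ears. The median was -0.37 in DNFB ears and 0.06 in control ears. In control ears 8 of the 29 genes were wholly higher and 1 wholly lower in knockout. The share over all genes was not counted for control ears. None was called by limma (lowest adjusted p = 0.133), 20 were lower at an unadjusted p below 0.05, and Spink5 and Krt2 were called with the trend and robust options. The mean log2 intensity of the list was 9.92, 9.84 and 9.72 in knockout DNFB ears and 10.11, 10.34 and 10.10 in wild-type DNFB ears, with no overlap, and the 6 control ears lay between 10.00 and 10.14.

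Spink5, a serine protease inhibitor that restrains the shedding of corneocytes, had 960, 923 and 1077 in knockout DNFB ears and 1430, 1697 and 1399 in wild-type DNFB ears (-0.61 ± 0.11, adjusted p = 0.133). Hrnr, encoding the cornified envelope protein hornerin, had 1446, 1249 and 1273 in knockout DNFB ears and 2123, 2233 and 1686 in wild-type DNFB ears (-0.60 ± 0.16, adjusted p = 0.292). Both genes had every knockout ear below every wild-type ear. The lipoxygenase gene Alox12b, needed for the lipid envelope of corneocytes, had 127, 92.8 and 126 in knockout and 137, 225 and 169 in wild-type DNFB ears (-0.60, adjusted p = 0.366).

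The widest difference of the list was that of the keratin gene Krt24, at 190, 147 and 77.9 in knockout and 197, 195 and 233 in wild-type DNFB ears (-0.68, adjusted p = 0.455). The kallikrein Klk5, the target of Spink5, differed the same way, with 607, 569 and 545 in knockout and 763, 909 and 726 in wild-type DNFB ears (-0.47, adjusted p = 0.271). Both a protease and its inhibitor thus stood among the 19. So did Flg (filaggrin), Lor (loricrin), Casp14, Cdsn, Tgm1, Abca12, Cers3, Aloxe3, Rptn, Klk7, Dsg1a, Dsc1, Krt2 and Smpd1, which encode proteins, proteases and lipid enzymes of the upper epidermal layers. Of the 19, all but Krt24, Spink5, Alox12b and Hrnr were named after their values were seen.

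The keratins of the basal and lower layers overlapped between genotypes. Krt14 had 7842, 9661 and 7776 in knockout and 7490, 8304 and 7427 in wild-type DNFB ears (0.12, adjusted p = 0.789). Krt5 differed by -0.02, Krt1 by -0.11 and Krt10 by -0.10. These 4 genes stood toward the top of the scale, where Krt14 was the brightest probe set of knockout DNFB replicate 2 (9661) and Krt10 that of wild-type DNFB replicate 1 (9209). Differences there can be compressed, so the overlap does not show that these keratins were equal.

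The epidermal stress list, of genes that keratinocytes switch on in inflamed skin, had 20 of 22 differences below 0 and a median of -0.17, but only 2 genes (9.09%) without overlap. Serpinb3a had 276, 236 and 274 in knockout and 379, 641 and 443 in wild-type DNFB ears (-0.86, adjusted p = 0.372). Members of its family share sequence, so which one the probes measured is uncertain. The growth factor gene Ereg had 160, 105 and 123 in knockout and 217, 269 and 173 in wild-type DNFB ears (-0.76, adjusted p = 0.318), while the stress keratins Krt6a and Krt16 differed by -0.05 and -0.08.

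**Figure D4:**
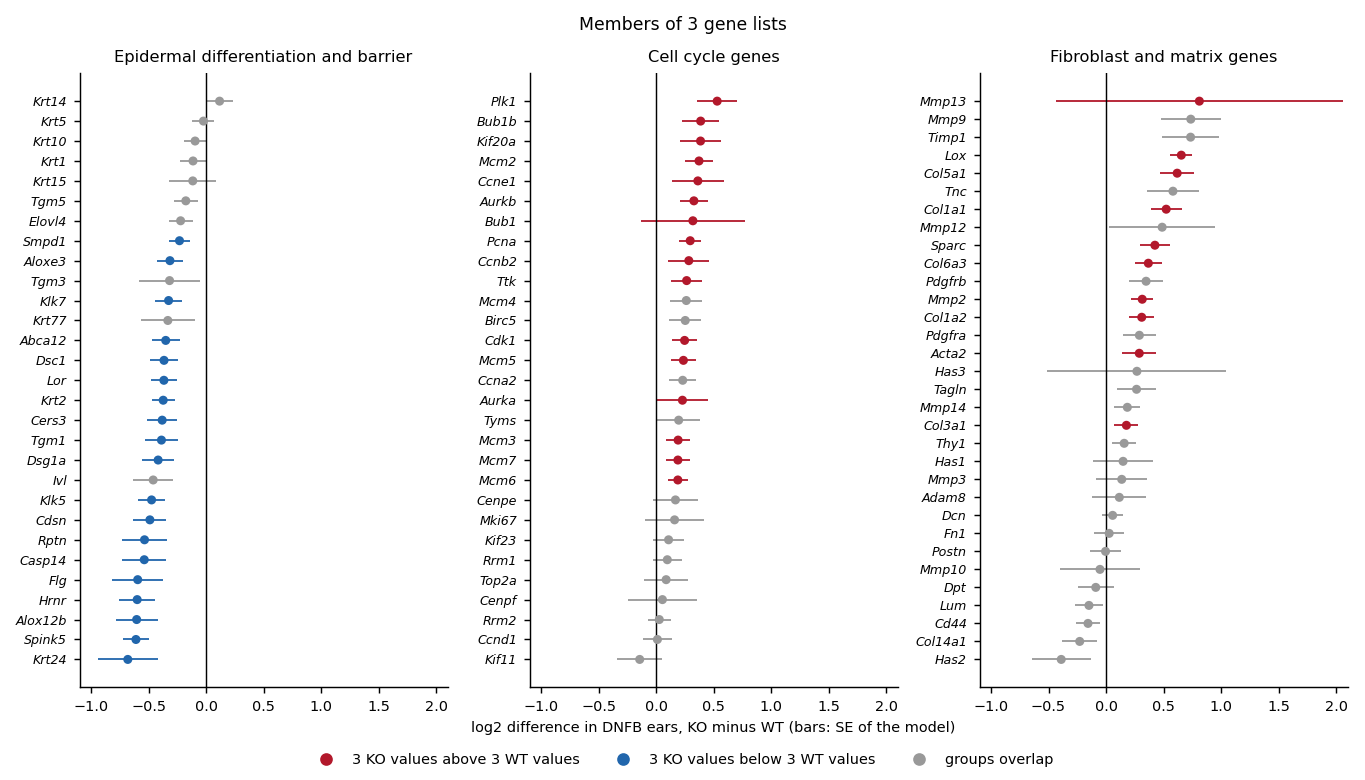
Log2 difference, knockout minus wild-type DNFB ears, with SE for each tested gene of the epidermal differentiation, cell cycle, and fibroblast and matrix lists. Red marks genes whose 3 knockout ears all lay above the 3 wild-type ears, blue those all below and grey those that overlap. The epidermal panel holds 19 blue and 0 red genes, the cell cycle panel 16 red and 0 blue, and the matrix panel 10 red and 0 blue.

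Cell cycle genes were higher in knockout DNFB ears as a list, again without single calls. Of 29 tested genes, 28 differed upward and 16 (55.2%) did not overlap, with a median of 0.23 in DNFB ears and -0.20 in control ears. Among control ears, 1 gene was wholly higher and 4 were wholly lower in knockout. None was called (lowest adjusted p = 0.372, limma), and 6 were higher at an unadjusted p below 0.05. The list's mean log2 intensity was 8.36, 8.37 and 8.31 in knockout DNFB ears and 8.14, 8.21 and 8.03 in wild-type DNFB ears, so the lowest knockout ear exceeded the highest wild-type ear.

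Plk1, a kinase that drives mitosis, had 208, 259 and 242 in knockout DNFB ears and 149, 175 and 165 in wild-type DNFB ears (0.53 ± 0.18, adjusted p = 0.383). The spindle checkpoint kinase Bub1b had 158, 180 and 155 in knockout and 149, 118 and 112 in wild-type DNFB ears (0.39, adjusted p = 0.49). Mcm2, a subunit of the replicative helicase, had 290, 268 and 284 in knockout and 209, 228 and 214 in wild-type DNFB ears (0.37, adjusted p = 0.372). Genes of mitosis and of DNA replication both stood among the 16, whereas Mki67, a general marker of dividing cells, overlapped (0.16, adjusted p = 0.879).

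Promoters of these lists differ in their short motifs, and 5 are shown as examples. They belong to genes described here whose 3 knockout DNFB ears all lay above, or all below, the 3 wild-type ones. Other genes described here meet that condition too. Each promoter shown runs from 250 bases before to 50 bases after a RefSeq transcription start on build GRCm38.p6. They are Plk1 (chr7:122159185-122159484, plus strand), Bub1b (chr2:118597961-118598260, plus strand), Mcm2 (chr6:88898731-88899030, minus strand), Hrnr (chr3:93319499-93319798, plus strand) and Ccl8 (chr11:82114935-82115234, plus strand). Capitals mark TTTGAA (the core of the CHR element of cell cycle promoters), CCAAT and TATAAA on either strand, and no 2 marked matches overlap. All 3 cell cycle promoters shown hold both TTTGAA and CCAAT, so they do not stand for the shares of their list given below.
Plk1: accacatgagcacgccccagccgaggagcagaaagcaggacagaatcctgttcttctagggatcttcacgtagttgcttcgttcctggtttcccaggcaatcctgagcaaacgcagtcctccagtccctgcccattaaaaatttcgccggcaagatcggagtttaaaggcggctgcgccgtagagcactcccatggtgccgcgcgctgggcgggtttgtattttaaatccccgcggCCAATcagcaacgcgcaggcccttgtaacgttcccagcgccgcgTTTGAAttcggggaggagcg
Bub1b: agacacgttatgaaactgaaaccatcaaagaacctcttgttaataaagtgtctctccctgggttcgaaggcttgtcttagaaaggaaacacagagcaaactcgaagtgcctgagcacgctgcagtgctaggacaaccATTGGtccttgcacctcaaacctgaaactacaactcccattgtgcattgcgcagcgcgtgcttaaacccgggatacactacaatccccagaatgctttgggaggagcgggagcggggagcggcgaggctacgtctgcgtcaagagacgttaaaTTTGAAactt
Mcm2: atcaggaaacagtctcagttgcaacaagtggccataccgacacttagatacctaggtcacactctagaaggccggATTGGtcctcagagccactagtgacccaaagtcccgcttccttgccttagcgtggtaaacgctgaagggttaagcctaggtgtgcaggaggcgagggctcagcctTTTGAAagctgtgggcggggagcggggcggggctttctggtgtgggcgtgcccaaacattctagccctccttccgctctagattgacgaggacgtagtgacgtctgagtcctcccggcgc
Hrnr: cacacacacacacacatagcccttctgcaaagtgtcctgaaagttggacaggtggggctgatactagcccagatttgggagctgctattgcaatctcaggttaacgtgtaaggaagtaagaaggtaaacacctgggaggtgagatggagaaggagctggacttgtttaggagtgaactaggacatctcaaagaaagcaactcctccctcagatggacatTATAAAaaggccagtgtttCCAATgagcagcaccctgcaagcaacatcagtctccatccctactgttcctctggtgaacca
Ccl8: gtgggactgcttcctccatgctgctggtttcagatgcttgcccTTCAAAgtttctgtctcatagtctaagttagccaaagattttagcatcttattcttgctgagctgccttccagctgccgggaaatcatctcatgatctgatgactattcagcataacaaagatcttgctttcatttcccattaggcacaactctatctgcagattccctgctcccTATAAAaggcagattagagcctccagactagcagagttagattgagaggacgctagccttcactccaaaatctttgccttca
TTTGAA stood in 12 of 25 windows (48%) of cell cycle genes, against 17.9% of 32851 RefSeq promoter windows, and CCAAT in 22 of 25 (88%) against 37.4%. In windows of the epidermal list, TTTGAA stood in 3 of 25 (12%) and CCAAT in 10 of 25 (40%). TATAAA was in 0 of 25 cell cycle windows, 7 of 25 (28%) epidermal windows and 9 of 22 (40.9%) matrix windows, against 13.6% of all windows. A match is a string of letters and says nothing of binding.

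Fibroblast and matrix genes had a median of 0.27 in DNFB ears, with 10 of 32 (31.2%) wholly higher in knockout DNFB ears and 0 wholly lower. In control ears the median was 0.01, with 6 of the 32 genes wholly higher and 0 wholly lower in knockout. Lox was called, and 11 genes including it were higher at an unadjusted p below 0.05. Col5a1, a fibrillar collagen gene named after its values were seen, had 459, 395 and 354 in knockout and 273, 214 and 303 in wild-type DNFB ears (0.62, adjusted p = 0.253). With the trend and robust options Col5a1 was called (adjusted p = 0.0474). Col1a1, encoding the main collagen of dermis and likewise named after its values were seen, had 1602, 1618 and 1316 in knockout and 1109, 1046 and 990 in wild-type DNFB ears (0.52, adjusted p = 0.285). For Col1a1 the control-ear difference was 0.57, about that in DNFB ears, and for Col5a1 it was 0.39.

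The largest difference of the list was that of the collagenase gene Mmp13, at 87.5, 117 and 149 in knockout and 54.9, 68.3 and 75.6 in wild-type DNFB ears (0.81 ± 1.25, adjusted p = 0.876). Its groups did not overlap, but its SE, taken over all 12 arrays, exceeded the difference. Timp1, a metalloproteinase inhibitor, had 582, 922 and 1034 in knockout and 538, 357 and 627 in wild-type DNFB ears (0.74, adjusted p = 0.397). The gelatinase Mmp9, which neutrophils carry, had 86.3, 150 and 153 in knockout and 75.6, 63.3 and 89.5 in wild-type DNFB ears (0.74, adjusted p = 0.428). In both Timp1 and Mmp9, 1 knockout ear, replicate 1, lay within the wild-type range. The matrix median was 0.14 with the washing run as a fixed block and 0.16 without wild-type DNFB replicate 2.

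Genes of alternative macrophage activation, the state that type 2 cytokines induce, all differed upward, 11 of 11, with 4 (36.4%) not overlapping and a median of 0.24, against -0.04 in control ears. None was called by limma (lowest adjusted p = 0.215), and 3 were higher at an unadjusted p below 0.05. Arg1, encoding arginase, had 419, 576 and 899 in knockout DNFB ears and 123, 407 and 279 in wild-type DNFB ears (1.32 ± 0.39, adjusted p = 0.363). The ears of both genotypes were widely spread, and the lowest knockout ear was only just above the highest wild-type ear. With the washing run as a fixed block the median of the list was 0.46.

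Cd163, the haemoglobin scavenger receptor of resident macrophages, had 220, 240 and 318 in knockout and 169, 126 and 167 in wild-type DNFB ears (0.75 ± 0.17, adjusted p = 0.215). It was called with the trend and robust options (adjusted p = 0.0285). Control ears had 318, 306 and 305 in knockout and 303, 238 and 283 in wild-type mice (0.18, adjusted p = 0.712). For Cd163 the wild-type DNFB ears thus lay below all other ears, and knockout DNFB ears did not exceed control ears. Alox15, a lipoxygenase gene, had 104, 82.9 and 82.9 in knockout and 69.4, 34.2 and 62.5 in wild-type DNFB ears (0.76, adjusted p = 0.569). Beside these, 21 general monocyte and macrophage markers had a median of 0.15, and 4 (19%) did not overlap. Their mean log2 intensity overlapped, at 8.92, 9.07 and 9.27 in knockout and 9.13, 8.75 and 9.08 in wild-type DNFB ears, and without knockout DNFB replicate 3 the median was -0.0085. Of the 4, Ms4a7 had 666, 579 and 599 in knockout and 416, 468 and 467 in wild-type DNFB ears (0.45, adjusted p = 0.248).

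In the complement list, 4 of 11 genes (36.4%) lay wholly higher in knockout DNFB ears and 0 wholly lower, with a median of 0.30. They were the receptor gene C3ar1, at 521, 674 and 528 in knockout and 460, 409 and 458 in wild-type DNFB ears (0.37, adjusted p = 0.429), and the 3 chain genes of C1q, which macrophages make. C1qa, C1qb and C1qc differed by 0.30, 0.32 and 0.33. These 3 genes also lie near Cnr2, with C1qb, C1qc and C1qa at positions 13, 14 and 15 in tested genes along chromosome 4. They are among the 12 genes counted there as wholly above, and the part of that position in their differences was not tested. The 3 chains are made by the same cells, so they do not count as separate evidence. Without wild-type DNFB replicate 2, the lowest ear for all of C3ar1 and the C1q genes, the list's median was 0.09, and with the washing run as a fixed block it was 0.16.

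**Figure D5:**
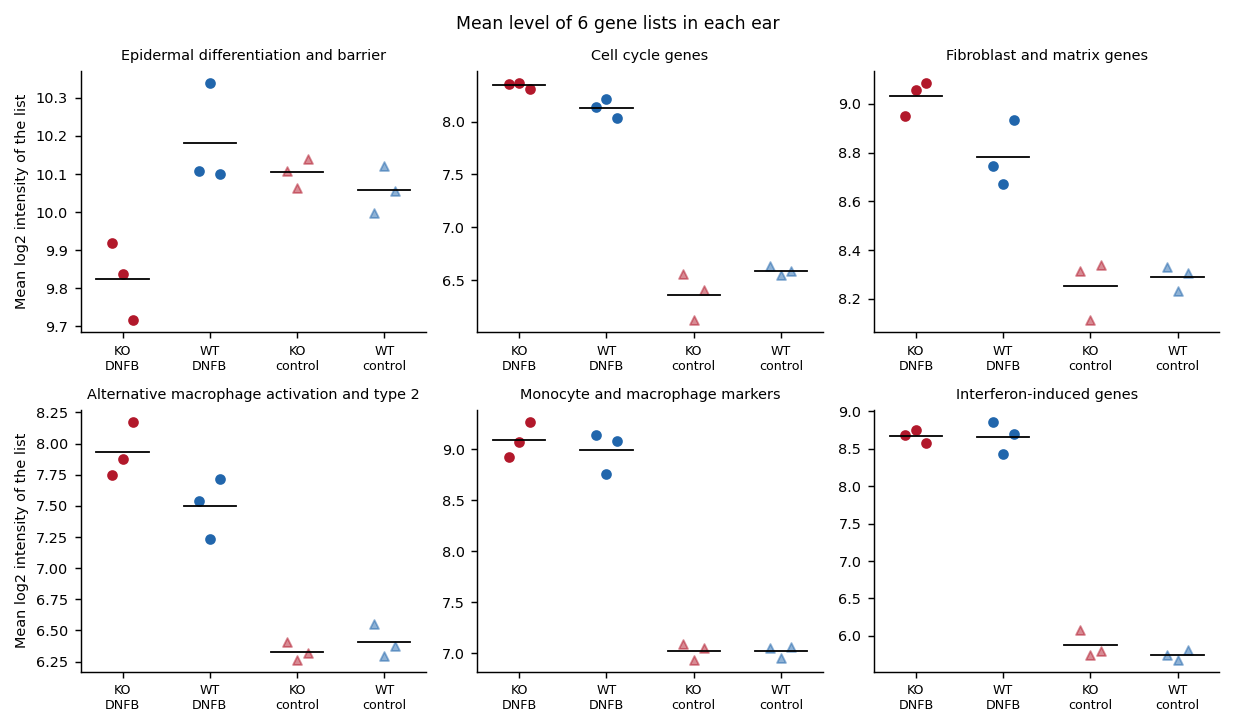
Mean log2 intensity per array of 6 gene lists in knockout and wild-type DNFB ears and in knockout and wild-type control ears, with 1 point per array. Epidermal differentiation is lower and the cell cycle list higher in all 3 knockout than in all 3 wild-type DNFB ears, whereas the monocyte and macrophage list and the interferon list overlap.

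Genes of the T cell arm of the reaction mostly overlapped between the genotypes. None of 24 interferon-induced genes had non-overlapping groups, and none reached an unadjusted p below 0.05. Their median was 0.05, and Gbp6, an interferon-induced GTPase gene with the largest difference, had 300.4, 327 and 357 in knockout and 513, 328 and 473 in wild-type DNFB ears (-0.39, adjusted p = 0.61). The chemokine genes Cxcl9 and Cxcl10, which interferon induces, differed by -0.21 and -0.05. Markers of T and NK cells had a median of 0.06 over 24 genes, class I antigen presentation 0.0024 over 13, class II 0.06 over 12 and cytokines and their receptors -0.02 over 26. Ifng, the gene of the T cell cytokine itself, was near the limit of 16, at 24.2, 17.6 and 22.5 in knockout and 29.3, 28.3 and 29.4 in wild-type DNFB ears (-0.45 ± 0.56, adjusted p = 0.842), so that the knockout ears were the 3 lowest. Neutrophil markers had a median of 0.11 over 15 genes, with 1 not overlapping.

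The enzymes and receptors that make, break and sense endocannabinoids had a median of 0.04 over 18 tested genes. In knockout DNFB ears 1 of them, Cnr2 itself, was wholly higher and 2 were wholly lower. Faah, the hydrolase of anandamide, had 106, 135 and 124 in knockout and 133, 153 and 123 in wild-type DNFB ears (-0.16, adjusted p = 0.748). Mgll, the monoacylglycerol lipase, overlapped as well (0.06, adjusted p = 0.942). The nuclear receptor gene Ppara, whose protein binds related lipid amides, had 23.9, 21.0 and 21.6 in knockout and 36.4, 25.9 and 31.9 in wild-type DNFB ears (-0.49, adjusted p = 0.305).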

How the data were processed

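Gene expression was measured on 12 Affymetrix Mouse430_2 arrays, 1 ear per array. The deposited table holds 1 linear intensity per probe set and array, which the authors made with GCRMA, per the submitters' processing notes (version not given in the sources used here); no column was left unused. Values were put on the log2 scale here without a pseudocount. Instrument records, also deposited (unit: other), gave the hybridization time of each array. A gap between these times was taken to start a new washing run, so the run of each array is inferred.

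Of 45101 probe sets, 64 are controls, 34945 carry 1 gene symbol, 932 several and 9160 none in GEO's platform annotation. The fit was made with limma 3.58.1 (R 4.3.3, lmFit and eBayes) with 1 coefficient per group over 12 arrays, with Benjamini-Hochberg adjustment across the 29460 probe sets tested. Groups come from the labels. The scripts were tested on simulated data. Alternatives were the filter, the variance model (trend and robust), the arrays fitted, quantile normalization, median centring, a pseudocount of 16, the washing run, mouse or replicate number as a block, averaged probe sets, and leaving out each DNFB array.

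Named genes are those called whose groups do not overlap, the 5 with the smallest p where fewer than 5 were called in a direction, the members of a list with the largest differences (up to 4), and Cnr1, Cnr2, Ccl8, Ccl2, Ccl7 and Ccl12. All other genes were named after their values were seen. The comparison, the lists and the tests were chosen with earlier results of these data known. A group mean below 16 gives only a bound. The 3 mice per genotype are separate animals, and precision is limited by the number of arrays.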

Additional observations from a re-analysis of the deposited data

Results flagged for a closer look

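Slco1a5, an organic anion transporter gene, was the 1 probe set called for a difference between the genotype contrasts of DNFB and control ears (log2 difference -2.20 ± 0.20, adjusted p = 0.0164, limma). In DNFB ears it had intensities of 18.6, 18.5 and 17.5 in knockout and 22.9, 20.6 and 28.5 in wild-type mice (-0.39 ± 0.14, adjusted p = 0.434). In control ears it had 7.05, 8.47 and 6.54 in knockout and 2.12, 2.25 and 1.88 in wild-type mice (1.81 ± 0.14, adjusted p = 0.000896). All 6 control ears lay below the limit of 16, where the order of values depends on background handling, so the difference rests on values without a fixed order. How far background handling set it was not tested.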

How the results depend on the processing

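The numbers of calls depended on the settings, while the medians of the 6 lists described in detail (epidermal, cell cycle, matrix, alternative macrophage, monocyte and macrophage, complement) kept their direction with 1 exception given below. With no filter on dim probe sets, 6 probe sets were higher and 7 lower, with 1 gene each way, 0 members of these lists and 1 gene near Cnr2. With a filter at 64, 31 probe sets were lower, 10 genes higher and 19 lower, with 2 list members, 6 genes near Cnr2 and 1 near Cnr1. With limma's trend and robust options together, 33 probe sets were higher and 59 lower, 16 genes higher and 37 lower, with 5 list members, 7 genes near Cnr2 and 2 near Cnr1. The 6 DNFB arrays alone gave 2 and 5 probe sets, 1 gene each way, 0 list members and 1 gene near Cnr2. A pseudocount of 16 gave 7 genes higher and 9 lower, and 5 near Cnr2. Averaged probe sets left 1 gene near Cnr2 and 2 non-overlapping monocyte and macrophage markers, and turned Krt14 to -0.011.

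The washing run as a fixed block adjusts the comparison by knockout control replicate 3 set against knockout control replicates 1 and 2. It leaves wild-type DNFB replicate 1 without weight. It gave 1 probe set higher and 2 lower, 0 genes higher and 1 lower, 0 list members, 0 genes near Cnr2 and 1 near Cnr1. Cnr1 turned to 0.29 and Ccl7 to -0.19, the epidermal median was -0.53, the matrix median 0.14, the complement median 0.16, the alternative macrophage median 0.46 and the monocyte and macrophage median 0.32. As a random block (consensus correlation -0.103), 33 probe sets were lower, 9 genes higher and 13 lower, with 2 list members and 5 genes near Cnr2.

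The replicate numbers did not pair the mice: deviations of same-numbered mice correlated at 0.0598, -0.0141 and 0.0728. The replicate block gave 6 probe sets higher and 10 lower, 0 genes higher and 1 lower, 0 list members and 1 gene near Cnr2.

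Leaving out each of the 6 DNFB arrays in turn gave 4 to 13 probe sets higher and 5 to 27 lower, 0 to 2 genes higher and 1 to 13 lower, 0 list members, 1 to 3 genes near Cnr2 and 0 to 1 near Cnr1. The monocyte and macrophage median ran from -0.0085, without knockout replicate 3, to 0.18, with 4 to 7 members not overlapping, and 10 to 18 matrix genes did not overlap. Ccl7 ran from -0.35 to 0.28 and was below 0 without knockout replicates 2 (-0.05) and 3 (-0.02) and wild-type replicate 2 (-0.35). Ccl2 ran from -0.51 to 0.053, above 0 without wild-type replicate 3. The cause of these changes was not tested. Over all alternatives the epidermal median ran from -0.53 to -0.29 and the cell cycle median from 0.18 to 0.26. Values near 16 are limited by background.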

Other observations

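Genes of the hair follicle, the keratins and keratin-associated proteins of the hair shaft and its sheath, were higher in knockout DNFB ears in 23 of 23 tested genes, with a median of 0.74, against -0.44 in control ears. The groups nevertheless overlapped for all but 1 gene. The mean log2 intensity of the list was 7.70, 7.91 and 5.55 in knockout and 7.59, 6.15 and 5.41 in wild-type DNFB ears, so the ears of each genotype spread over more than the genotypes differ. Krt71, an inner root sheath keratin gene, had 1366, 1092 and 176 in knockout and 975, 253 and 184 in wild-type DNFB ears (0.84 ± 0.81, adjusted p = 0.781). Melanocyte markers had a median of 0.52 over 8 genes with none free of overlap, and Tyr, the tyrosinase gene of pigment synthesis, had 41.1, 55.5 and 25.7 in knockout and 29.6, 20.8 and 16.2 in wild-type DNFB ears (adjusted p = 0.376). In control ears the melanocyte median was 0.27, with 5 of the 8 genes wholly higher and 1 wholly lower in knockout.

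Skeletal muscle markers had differences below 0 in 24 of 25 genes (median -0.23), but none was called by limma (3 were lower at an unadjusted p below 0.05), and only Ttn had groups that did not overlap (4%, against 6.94% of all genes). Their mean log2 intensity overlapped, at 8.59, 8.66 and 9.01 in knockout and 8.67, 9.13 and 9.27 in wild-type DNFB ears. Ttn, encoding the sarcomere protein titin, had 453, 496 and 610 in knockout and 632, 911 and 916 in wild-type DNFB ears (-0.65, adjusted p = 0.424). Of 12 cholesterol synthesis genes 11 were lower and 4 (33.3%) did not overlap, with a median of -0.19 in DNFB ears and 0.24 in control ears. Stard4, a cholesterol carrier gene, had 325, 264 and 262 in knockout and 358, 387 and 367 in wild-type DNFB ears (-0.39, adjusted p = 0.288). The 17 tested clock genes had a median of -0.02. Of them 2 (11.8%) were wholly higher and 2 (11.8%) wholly lower, against 8.96% and 6.94% of all genes. Arntl and Dbp had the lowest and the highest difference of that list. The activator gene Arntl had 71.3, 48.4 and 60.7 in knockout and 81.9, 91.8 and 96.5 in wild-type DNFB ears (-0.60 ± 0.14, adjusted p = 0.242). Dbp, an output gene of the same clock, lay the other way, with 339, 310 and 293 in knockout and 243, 277 and 199.8 in wild-type DNFB ears (0.40, adjusted p = 0.474). Alas2, which marks red cell precursors, had 39.0, 47.4 and 48.1 in knockout and 18.7, 15.6 and 29.4 in wild-type DNFB ears (1.13, adjusted p = 0.285). Of the 7 red cell genes listed, 2 were tested. In control ears 2 were wholly higher in knockout (median 0.85), against 1 in DNFB ears (median 0.69).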
